A study of Mus musculus with 24 samples.

Results

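Tnfrsf12a encodes the receptor of the cytokine TWEAK, a cell surface protein also called Fn14, and its level was followed over time and dose in mouse cortical cultures given the proteasome inhibitor lactacystin. The gene has 1 probe among the 24613 probes with values, found by its symbol, and the probe was detected on all 24 arrays. It was chosen from earlier results on these arrays for its rise, so its levels and those of the genes with the closest course are a description, with no test. These are 12 genes chosen by the correlation of their course with that of Tnfrsf12a and 6 chosen by the size of their changes, with 1 gene in both sets, so 17 genes in all.

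The cultures came from the cortex of Swiss albino mouse fetuses and were treated on day 5 in culture. The treated groups had 1 µM lactacystin, with exposures of 5, 8, 15 and 24 h, or 0.1 µM, with exposures of 15 and 24 h. Each of the 6 has 3 arrays, and another 6 arrays came from untreated cultures. The inhibitor came from a stock in DMSO that was diluted with Neurobasal medium. The labels give no genetic change for any group, and neither a vehicle nor a collection time for the untreated cultures. Whether replicates were grown as separate cultures is not labelled, so p-values measure the spread between these samples, which may be technical. RNA came from whole cultures, so fewer cells of a type and less RNA per cell cannot be told apart, and no change can be assigned to neurons.

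TWEAK, encoded by Tnfsf12, belongs to the tumour necrosis factor (TNF) family of ligands. Its receptor has a short cytoplasmic tail that binds TRAF adaptor proteins, through which it can activate the canonical and non-canonical NF-kB pathways. The receptor gene is known as one induced by fibroblast growth factor and serum, is low in most healthy tissue and rises in injured tissue, nerve and brain included.

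Tnfrsf12a lies on chromosome 17 between 23675445 and 23677449 on the minus strand of GRCm38.p6. The 250 bases before its annotated start are shown because Tnfrsf12a and the genes below moved together. Those of Atf3, Hspb1 and Nupr1, which changed by similar amounts, are shown beside them. Those of Gdf15 and Trib3, which also changed by similar amounts, are not printed. Sequences are from RefSeq (GRCm38.p6) and run 5′ to 3′ towards the start, and capitals mark matches to the motifs searched on both strands.
Tnfrsf12a (chr17:23677450-23677699, minus strand): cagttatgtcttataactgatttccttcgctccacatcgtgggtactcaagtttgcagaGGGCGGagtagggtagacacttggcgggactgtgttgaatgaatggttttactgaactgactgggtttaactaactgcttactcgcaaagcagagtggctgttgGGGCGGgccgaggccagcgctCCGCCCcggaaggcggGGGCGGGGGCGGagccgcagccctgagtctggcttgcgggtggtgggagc
Atf3 (chr1:191183334-191183583, minus strand): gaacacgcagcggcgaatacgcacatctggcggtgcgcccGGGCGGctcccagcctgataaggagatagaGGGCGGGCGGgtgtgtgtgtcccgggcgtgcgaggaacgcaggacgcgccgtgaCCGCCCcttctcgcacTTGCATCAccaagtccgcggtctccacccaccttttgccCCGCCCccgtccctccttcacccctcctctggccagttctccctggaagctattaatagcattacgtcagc
Hspb1 (chr5:135887669-135887918, plus strand): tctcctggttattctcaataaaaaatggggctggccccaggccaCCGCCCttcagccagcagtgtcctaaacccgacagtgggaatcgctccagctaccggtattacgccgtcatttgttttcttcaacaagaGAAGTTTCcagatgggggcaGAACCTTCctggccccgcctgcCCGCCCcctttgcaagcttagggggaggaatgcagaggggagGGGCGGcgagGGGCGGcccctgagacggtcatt
Nupr1 (chr7:126625471-126625720, minus strand): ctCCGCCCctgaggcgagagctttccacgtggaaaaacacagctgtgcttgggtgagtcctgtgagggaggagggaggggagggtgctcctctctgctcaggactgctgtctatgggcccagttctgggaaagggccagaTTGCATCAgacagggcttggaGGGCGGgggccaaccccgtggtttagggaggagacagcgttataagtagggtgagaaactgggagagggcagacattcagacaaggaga

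The window of Tnfrsf12a held 5 copies of the GC box GGGCGG, at positions -191 to -39 from the start, and 32.7% of all 32851 windows of this length held at least 1. It held no match to the AP-1 motif TGANTCA (6.75% of all windows), the CRE motif TGACGTCA (1.55%), the ATF4 composite motif TGATGNAA (3.45%) or the antioxidant motif TGACNNNGC (10.2%). Nor did it match the heat shock motif GAANNTTC (6.69%), CCAAT (33.8%) or the consensus NF-kB site (0.356%). Of the 17 genes with the closest course, 15 had a window, all but Hmox1 and Pvr. The GC box was found in 11 of the 15, the ATF4 composite motif in 4 (Atf3, Nupr1, Rab21 and Mbnl2) and the heat shock motif in Hspb1, whose window held it at 2 places. Among all 27025 genes with a window, 35.4%, 3.91% and 7.73% held these motifs. Gdf15 and Trib3, whose windows are not printed, held neither the ATF4 composite nor the heat shock motif. The printed windows therefore do not stand for all genes chosen by size. CCAAT was found in 6 of the 15 (37.5% of all genes), the antioxidant motif in 2 (11.5%) and the CRE motif in 1 (1.77%). The AP-1 motif and the NF-kB site were found in none (7.82% and 0.414% of all genes). A match describes letters and not a binding site, and 1 pair of GC boxes overlaps in the window of Atf3.

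The deposited signal of Tnfrsf12a was 380.7, 476.4 and 297.4 arbitrary units after 5 h of 1 µM lactacystin, against 154.6, 192.1, 105.3, 140.1, 231.1 and 157.8 in untreated cultures. After 8 h of 1 µM it was 988.8, 1294.8 and 927, and after 15 h it was 4140.6, 4430.7 and 4440.6. After 24 h of 1 µM it was 5338.1, 5913.9 and 5585. Every array at 1 µM lay above every untreated array, and each later group lay wholly above the one before it. The receptor probe at 24 h of 1 µM was brighter than 99.2% to 99.3% of all probes on its array, against 66.4% to 74.8% in untreated cultures. The brightest probe of any array read 26642.3.

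At 0.1 µM the receptor transcript was higher at the earlier time only. The signal was 282.5, 226.9 and 272.3 after 15 h and 102.4, 123.8 and 116.7 after 24 h of 0.1 µM. The lowest array at 15 h fell just below the highest untreated array, and the arrays at 24 h lay in the lower part of the untreated range or below it.

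On the normalized log2 scale used from here on, Tnfrsf12a averaged 8.51 ± 0.10, 9.81 ± 0.03, 12.12 ± 0.12 and 12.58 ± 0.05 at 5, 8, 15 and 24 h of 1 µM (SD, n = 3 each), against 6.86 ± 0.33 in untreated cultures (SD, n = 6). The differences from untreated were 1.65, 2.95, 5.27 and 5.72 log2 units, or 3.14-fold, 7.75-fold, 38.5-fold and 52.7-fold. As ratios of the mean deposited signals they were 2.35, 6.55, 26.5 and 34.3. Most of the climb fell between 5 and 15 h: the level gained 0.43 log2 units per hour between 5 and 8 h, 0.33 between 8 and 15 h and 0.05 between 15 and 24 h. Among the 10903 genes tested, its difference from untreated ranked 12 from the top at 5 h, 5 at 8 h and 2 at both 15 h and 24 h of 1 µM.

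At 0.1 µM the mean was 7.94 ± 0.24 after 15 h and 6.61 ± 0.27 after 24 h (SD, n = 3 each), a difference from untreated of 1.08 and -0.25. On this scale the lowest array at 15 h of 0.1 µM (7.70) lay above the highest untreated array (7.36). Within the 3 slides the difference at 15 h of 0.1 µM was 0.60, 1.59 and 1.05, positive on each, and at 24 h it was -0.43, 0.26 and -0.57, with mixed signs. The level at 24 h of 0.1 µM was 1.33 log2 units below that at 15 h, with no overlap. The difference of 1 µM from 0.1 µM was 4.19 at 15 h and 5.97 at 24 h, or 18.2-fold and 62.5-fold.

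From high to low, the order of the levels was 1 µM at 24, 15, 8 and 5 h, then 0.1 µM at 15 h, untreated, and 0.1 µM at 24 h. Among neighbours in this order, 0.1 µM at 24 h and untreated overlapped on both scales, and 0.1 µM at 15 h and untreated overlapped in the deposited signal. The ratios to untreated in the authors' deposited table were 2.27 to 2.89 at 5 h, 6.17 to 7.12 at 8 h, 25.9 to 30.9 at 15 h and 31.9 to 37.3 at 24 h of 1 µM, and 1.52 to 1.96 and 0.720 to 0.906 at 15 and 24 h of 0.1 µM. The standard error over the beads that carry the probe was 1.84% to 6.32% of the signal.

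**Figure D1:**
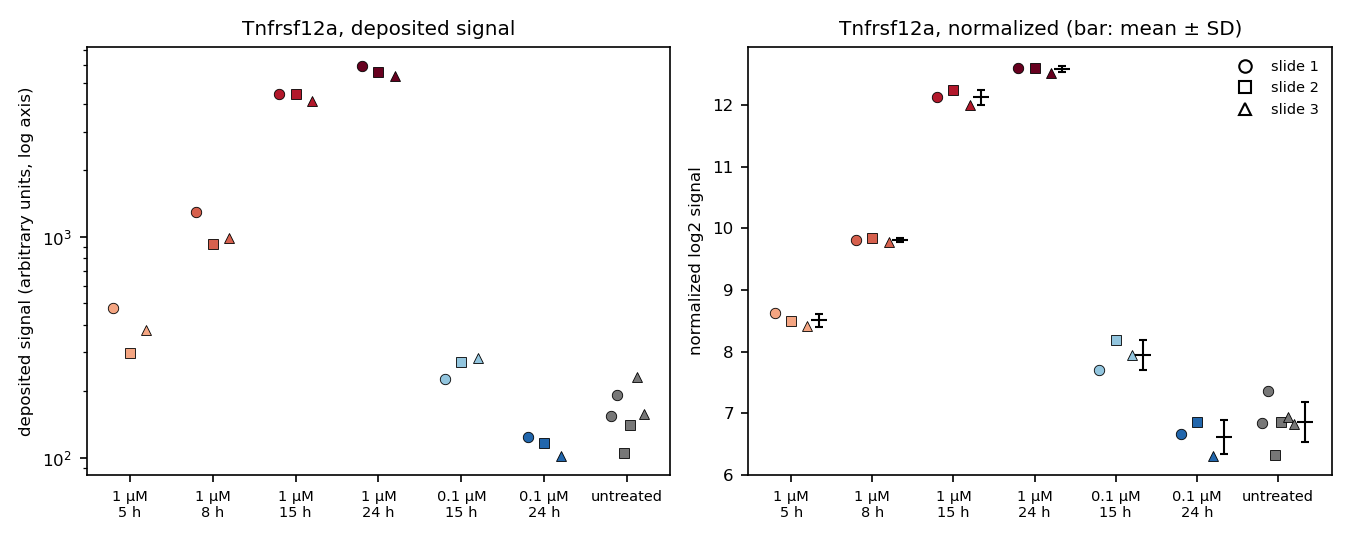
Signal of the Tnfrsf12a probe on each of the 24 arrays, as deposited (arbitrary units, log axis) and normalized (log2 scale, with mean and SD), for 1 µM lactacystin at 5, 8, 15 and 24 h, 0.1 µM at 15 and 24 h and untreated cultures. The 1 µM groups climb without overlap to 5338.1 to 5913.9 units at 24 h, while 0.1 µM at 24 h and untreated share part of their range.

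The arrays lie on 3 slides of 8, each with 2 untreated arrays and 1 array of every treated group. A treated group had the same position on every slide, and the effects of position and group cannot be told apart. Between 11291 and 12418 probes were detected per array, and the median signal of an array was 52.2 to 81.0 units. Over all genes, pairs of replicates lay 0.21 to 0.31 log2 units apart in treated groups and 0.29 to 0.55 in untreated cultures (root mean square). All comparisons with untreated share the same 6 untreated arrays. A gene was called at an adjusted p under 0.05 in limma, with Benjamini-Hochberg adjustment over the 10903 genes tested.

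Of 167 genes on 6 lists around the receptor (ligands, receptors, adaptors, NF-kB targets, genes of injured axons and growth factor-inducible genes), 109 passed the detection filter. At 1 µM, 21 of them were called at 5 h (10.3% of all genes), 49 at 8 h (39.9% of all genes), 70 at 15 h (54.8% of all genes) and 73 at 24 h (57.4% of all genes). At 0.1 µM, 38 were called at 15 h (16.5% of all genes) and 4 at 24 h (2.24% of all genes, 0.697% higher and 1.54% lower). The 4 were Egr1, which was higher, and Npy, Fadd and Plau, which were lower, named here after their values were seen. The count at 5 h of 1 µM was 13 without replicate 2 and 11 without replicate 3 of that group. At 24 h of 0.1 µM it was 10 with the slide as a block. Without single arrays it was 0 (0.1 µM 24 h replicate 1 or 2), 2 (0.1 µM 24 h replicate 3 or untreated replicate 6), 7 (untreated replicate 2 or 3) or 13 (untreated replicate 4). All these counts include Atf3, Gadd45a and Hspb1, which were chosen by their course and carry no test. Without them, 19, 46, 67 and 70 of 106 genes were called at 5, 8, 15 and 24 h of 1 µM. At 15 and 24 h of 0.1 µM, 37 and 4 of these were called. The counts by list that follow leave out Atf3, Gadd45a and Hspb1. Of the other 106 genes, 10 were detected on no untreated array and so passed the filter through treated arrays only, and 8 of these were higher at 24 h of 1 µM. Of the remaining 96, 43 were higher and 19 lower at that time.

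TWEAK itself was not detected. The probe of Tnfsf12 passed the detection threshold on 0 of 24 arrays, with signals of 36.9 to 40.3 units at 5 h, 40.7 to 51.9 at 8 h, 38.2 to 46.3 at 15 h and 41.3 to 45.0 at 24 h of 1 µM, 36.5 to 39.6 and 33.0 to 41.3 at 15 and 24 h of 0.1 µM, and 38.7 to 52.0 in untreated cultures. These ranges overlap and lie below the median signal of an array, so no level or fold is given. Of the 18 ligands of the family, 4 were tested and 14, among them Tnf, Lta and Tnfsf10, were detected on too few arrays. After 24 h of 1 µM, 2 had risen (26.7% of all genes were higher) and 1 had fallen (30.6% of all genes were lower). Both that rose, Fasl and Tnfsf13b, were detected on no untreated array and were tested only because treated arrays detected them, so this count is fixed by the filter. Of the other 2 tested, 0 rose.

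Fasl, the ligand of the death receptor Fas, was detected on no untreated array and on all 3 arrays at 15 h of 1 µM. It was at least 1.63-fold higher there. Such a bound sets the mean of the brighter group against the lowest signal that counts as detected on the arrays of the dimmer group, or the probe's own signal where that is higher. Fasl was detected on 2 of 3 arrays at 24 h of 1 µM and was called higher. Tnfsf13b, which encodes the B cell survival factor BAFF, was at least 1.24-fold higher at 24 h of 1 µM. Genes detected on no untreated array passed the filter only through treated arrays, so no p-value is given for their rise over untreated. Tnfsf13, which encodes the related factor APRIL, moved the other way. It was detected on no array at 24 h of 1 µM, against 5 of 6 untreated arrays, and was at least 1.32-fold lower (limma adjusted p = 4.93e-05). Tnfsf13 was higher at 15 h of 0.1 µM by 0.44 ± 0.14 (SE, limma adjusted p = 0.0433). This call was lost without any 1 of 13 arrays, untreated replicates 1, 3, 5 and 6, all 3 replicates of its own group and 6 arrays of other groups among them, with an adjusted p of 0.00225 to 0.194 over all alternatives. Eda was not called against untreated.

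Of the 27 other receptors of the family, 13 were tested, 13 were detected on too few arrays and Cd27 had no probe. None was called at 5 h of 1 µM, where 6.18% of all genes were higher. At 8 h, 3 rose (20.1% of all genes) and 1 fell (19.8% of all genes). At 15 h, 7 rose (27.2% of all genes) and 1 fell (27.7% of all genes). At 24 h again 7 rose (26.7% of all genes) and 1 fell (30.6% of all genes). With 0.1 µM, 3 rose at 15 h (8.53% of all genes) and none fell (8.01% of all genes), and none was called at 24 h. Their median change was 0.41 log2 units at 24 h of 1 µM, against -0.05 over all genes, and Tnfrsf22, detected on all 24 arrays, changed by 1.38, against 5.72 for Tnfrsf12a. Fas and Relt were detected on no untreated array and passed the filter through treated arrays only. Both are counted among the risen at 15 h of 1 µM. Fas is also counted at 24 h of 1 µM and at 15 h of 0.1 µM. Of the other 11 receptors, 6 rose and 1 fell at 24 h of 1 µM.

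Fas had normalized log2 values of 5.92, 6.41 and 6.77 at 24 h of 1 µM, against 4.60 to 4.81 in untreated cultures, where no array detected it. It was at least 2.47-fold higher at 24 h and 1.92-fold higher at 15 h of 1 µM. With 0.1 µM for 15 h it was at least 1.60-fold higher. Tnfrsf1a, the widely expressed TNF receptor with a death domain, had values of 9.52, 9.49 and 9.50 at 24 h of 1 µM, against 7.82 to 8.68 in untreated cultures, and was higher by 1.32 ± 0.13 (SE, limma adjusted p = 1.43e-08). At 15 h it was higher by 0.91 ± 0.13 at 1 µM and by 0.88 ± 0.13 at 0.1 µM (SE, limma adjusted p = 3.33e-06 and 7.03e-05). Fas and Tnfrsf1a, like Tnfrsf12a, stood above untreated at 15 h of 0.1 µM, and neither was called at 24 h of that dose.

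Tnfrsf1b, the other TNF receptor, fell. It was detected on no array at 24 h of 1 µM (4.36 to 4.49), against all 6 untreated arrays (5.53 to 6.16), and was at least 1.82-fold lower (limma adjusted p = 1.16e-07). Tnfrsf22, a mouse receptor of TRAIL that lacks a death domain, was higher by 1.38 ± 0.24 at 24 h of 1 µM (SE, limma adjusted p = 4.06e-05), and was not called in any other comparison with untreated. Smaller rises at 24 h of 1 µM were those of Tnfrsf4 (0.54), Tnfrsf10b, the mouse death receptor of TRAIL (0.52), Ltbr, the lymphotoxin beta receptor (0.41), and Tnfrsf19 (0.37). Ltbr was also called at 15 h of 0.1 µM, by 0.53 ± 0.12 (SE, limma adjusted p = 0.00491), a call lost when only the groups compared were fitted (0.0628; 8.99e-04 to 0.0628 over all alternatives). It was called at 15 h of 1 µM, where leaving out replicate 2 of that group ended the call (adjusted p = 0.0502, 0.00146 to 0.0502 over all alternatives). Relt, detected on no untreated array and on 2 of 3 arrays at 15 h of 1 µM, was at least 1.02-fold higher there. That call was lost without replicate 1 or 2 of that group or untreated replicate 3 or 5. Tnfrsf25 was called only at 8 h of 1 µM (0.39, limma adjusted p = 0.00246). Tnfrsf4, Ltbr and Tnfrsf25 were each detected on 1 of 6 untreated arrays, so their sizes rest on untreated levels near background. Other probes differed in size: at 24 h of 1 µM a second probe of Tnfrsf19 changed by 1.00, and one of Tnfrsf1a, detected on 3 arrays, by 0.44. A second probe of Tnfrsf10b, also detected on 3 arrays, changed by 0.99 at that time.

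**Figure D2:**
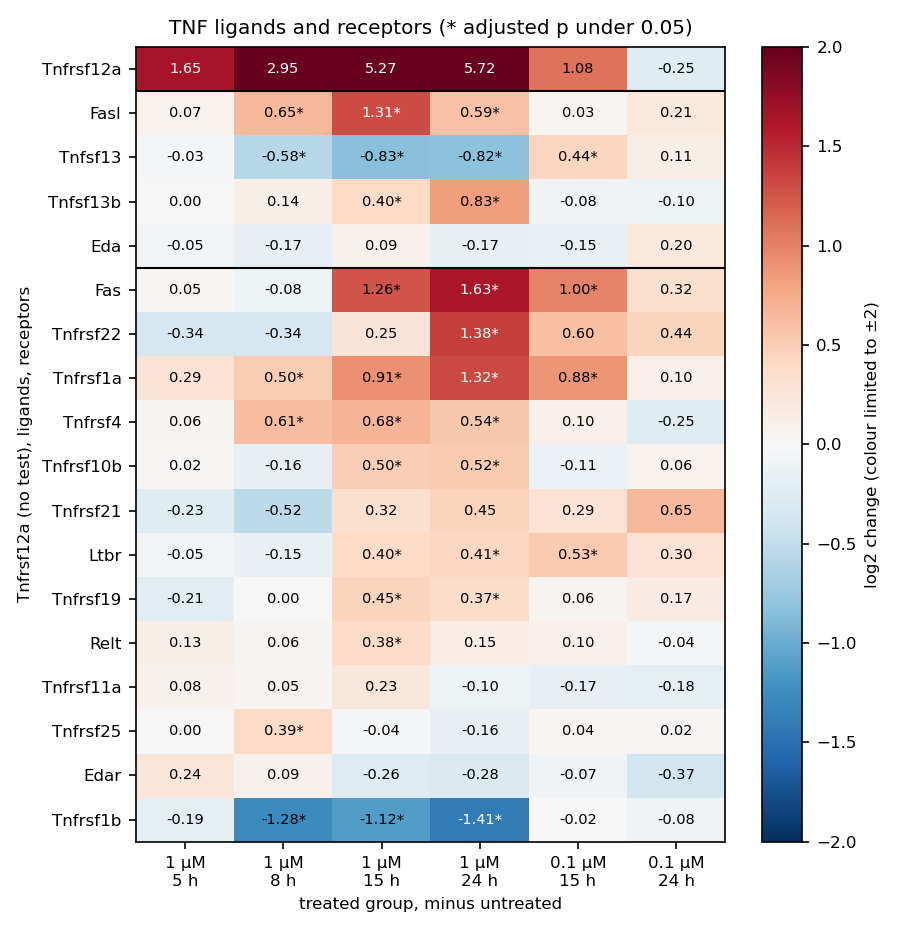
Log2 change from untreated of Tnfrsf12a, 4 TNF family ligands and 13 other receptors (rows) in each treated group (columns), as colour and number, with an asterisk where limma called the gene; Tnfrsf12a carries no test. Tnfrsf12a reaches 5.72 at 24 h of 1 µM, where Tnfrsf22 has 1.38; Fas, Relt, Fasl and Tnfsf13b were not detected in untreated cultures, so their numbers are not exact changes.

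Of 37 adaptors, kinases and NF-kB subunits that act below these receptors, 30 were tested. At 1 µM, 7 rose and none fell at 5 h (6.18% and 4.07% of all genes), 12 rose and 1 fell at 8 h (20.1% and 19.8% of all genes), and 10 rose and 4 fell at 15 h (27.2% and 27.7% of all genes). After 24 h 11 rose and 4 fell, or 36.7% and 13.3%, against 26.7% and 30.6% of all genes. Casp8 and Rel were detected on no untreated array and passed the filter through treated arrays only. Of the other 28, 10 rose and 4 fell at that time. The 5 largest called changes at 24 h of 1 µM were rises, in Chuk, Traf3, Map3k14, Nfkb1 and Rela.

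Map3k14 encodes NIK, the kinase that starts the non-canonical NF-kB pathway. Its log2 values were 6.80, 7.22 and 6.82 at 5 h, 7.64, 7.67 and 7.92 at 8 h, 7.51, 7.44 and 7.84 at 15 h and 6.90, 7.07 and 7.19 at 24 h of 1 µM, against 5.36 to 5.96 in untreated cultures. No array at 1 µM reached down to the untreated range. Map3k14 was higher by 1.23 ± 0.16, 2.02 ± 0.16, 1.88 ± 0.16 and 1.33 ± 0.16 at 5, 8, 15 and 24 h (SE, limma adjusted p = 3.52e-05, 3.60e-09, 1.90e-09 and 2.94e-07). Its highest mean was at 8 h, whereas that of Tnfrsf12a was at 24 h. At 0.1 µM Map3k14 was not called (-0.15 at 15 h and -0.16 at 24 h).

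Traf3, the adaptor that marks NIK for degradation, was higher by 1.44 ± 0.13 at 24 h of 1 µM (SE, limma adjusted p = 2.88e-09). With 0.1 µM for 15 h it was higher by 0.49 ± 0.13 (SE, limma adjusted p = 0.0106), a call lost without replicate 3 of that group (0.0536; 0.00124 to 0.186 over all alternatives). Its call at 5 h of 1 µM was lost without replicate 2 or 3 of that group (0.0788 and 0.0647, adjusted p; 6.91e-04 to 0.199 over all alternatives). Chuk, which encodes the kinase IKKα on which NIK acts, was higher by 1.45 ± 0.10 at 24 h of 1 µM (SE, limma adjusted p = 3.32e-11). Nfkb1 and Rela, which encode the subunits of the canonical NF-kB dimer, were higher by 1.19 ± 0.11 and 0.90 ± 0.08 (SE, limma adjusted p = 4.65e-09 and 8.47e-09). The 4 genes that fell at 24 h of 1 µM, named here after their values were seen, were the adaptors Traf2 (-0.56) and Traf4 (-0.44), the ubiquitin ligase Rnf31 (-0.48) and the adaptor Traf1. Traf1 was detected on no array at 24 h of 1 µM and on 1 of 6 untreated arrays, so no size is given. Traf1 rose at 15 h of 0.1 µM, by 1.48 ± 0.14 (SE, limma adjusted p = 2.69e-07), a size that rests on untreated levels near background.

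Genes that NF-kB is known to activate moved in both directions. Of 31 listed, 18 were tested. At 24 h of 1 µM 6 rose and 4 fell, or 33.3% and 22.2%, against 26.7% and 30.6% of all genes. Ccl7 and Gadd45b, both among the 6, were detected on no untreated array and passed the filter through treated arrays only. Of the other 16, 4 rose and 4 fell. With 0.1 µM for 15 h 7 of the 18 rose and none fell, against 8.53% and 8.01% of all genes. The median change of the 18 was -0.05 at 24 h of 1 µM and 0.15 at 15 h of 0.1 µM, against -0.05 and -0.03 over all genes. Ier3, an early stress-inducible gene that modulates cell survival, was higher by 2.33 ± 0.12, 2.77 ± 0.12, 3.13 ± 0.12 and 3.54 ± 0.12 at 5, 8, 15 and 24 h of 1 µM (SE, limma adjusted p = 1.13e-10, 8.74e-13, 1.32e-14 and 1.21e-15). At 0.1 µM it was higher by 1.56 ± 0.12 at 15 h (SE, limma adjusted p = 3.25e-08) and was not called at 24 h (0.33).

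Cxcl1, a neutrophil chemokine, was higher by 3.12 ± 0.15 at 15 h and 2.76 ± 0.15 at 24 h of 1 µM (SE, limma adjusted p = 3.64e-13 and 1.90e-12) and was not called at 0.1 µM. Csf1, the growth factor of microglia and macrophages, was higher at 15 h by 1.81 ± 0.19 at 1 µM and by 1.25 ± 0.19 at 0.1 µM (SE, limma adjusted p = 4.06e-08 and 9.55e-05). Icam1, a leukocyte adhesion molecule, was higher at 15 h by 1.45 ± 0.15 and 0.76 ± 0.15 at these doses (SE, limma adjusted p = 6.03e-08 and 0.00180). Icam1 was detected on 1 of 6 untreated arrays and Cxcl1 on 2 of 6, so the sizes of both rest on untreated levels near background. Gadd45b, a stress-inducible regulator of MAP kinases, was detected on no untreated array and was at least 1.67-fold higher at 24 h of 1 µM.

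Of 36 genes listed as induced by growth factors or through serum response factor (SRF), the class in which Tnfrsf12a was first described, 28 were tested. At 24 h of 1 µM 18 rose and 3 fell, or 64.3% and 10.7%, against 26.7% and 30.6% of all genes, with a median change of 0.80, against -0.05 over all genes. Plaur and Fosl1, both among the 18, were detected on no untreated array and passed the filter through treated arrays only. Of the other 26, 16 rose and 3 fell at that time. With 0.1 µM for 15 h 9 of the 28 rose and none fell, against 8.53% and 8.01% of all genes. The 5 largest called changes at 24 h of 1 µM were those of Ccn2, Plaur, Hbegf, Fosl1 and Lgals3.

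Ccn2, a matrix protein also called connective tissue growth factor, had log2 values of 8.31 to 8.75 at 15 h and 8.99 to 9.01 at 24 h of 1 µM, 7.04 to 7.52 and 5.24 to 5.76 at 15 and 24 h of 0.1 µM, and 5.44 to 6.30 in untreated cultures. It was higher by 3.01 ± 0.16 at 24 h of 1 µM and by 1.32 ± 0.16 at 15 h of 0.1 µM (SE, limma adjusted p = 5.71e-13 and 6.04e-06). It was not called at 5 or 8 h of 1 µM (-0.07 and 0.31), times at which Tnfrsf12a lay above all untreated arrays. Hbegf, a ligand of the epidermal growth factor receptor, was higher by 2.79 ± 0.14 and Lgals3, the lectin galectin-3, by 2.50 ± 0.15 at 24 h of 1 µM (SE, limma adjusted p = 2.12e-13 and 6.47e-12). Lgals3 was higher at 15 h of 0.1 µM by 0.76 (limma adjusted p = 0.00137), a call lost when only the groups compared were fitted (0.0618; 4.11e-05 to 0.0618 over all alternatives). Hbegf was higher there by 0.48 (limma adjusted p = 0.0196), a call lost without replicate 1 or 3 of that group (0.0868 and 0.140; 0.00864 to 0.142 over all alternatives). Plaur, the urokinase receptor, and Fosl1, an AP-1 subunit, were detected on no untreated array. They were at least 6.35-fold and 3.78-fold higher at 24 h of 1 µM.

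Of 28 genes known to rise in injured axons, 22 passed the filter and 19 are counted. At 24 h of 1 µM 8 rose and 7 fell, or 42.1% and 36.8%, against 26.7% and 30.6% of all genes. With 0.1 µM for 15 h 4 rose and 9 fell, or 21.1% and 47.4%, against 8.53% and 8.01% of all genes. Tubb6, a tubulin subunit, was higher by 2.96 ± 0.22 at 24 h of 1 µM and by 1.21 ± 0.22 at 15 h of 0.1 µM (SE, limma adjusted p = 1.50e-10 and 5.09e-04). Its call at 8 h of 1 µM was lost without replicate 2 of that group (0.0573; 3.74e-04 to 0.0616 over all alternatives).

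**Figure D3:**
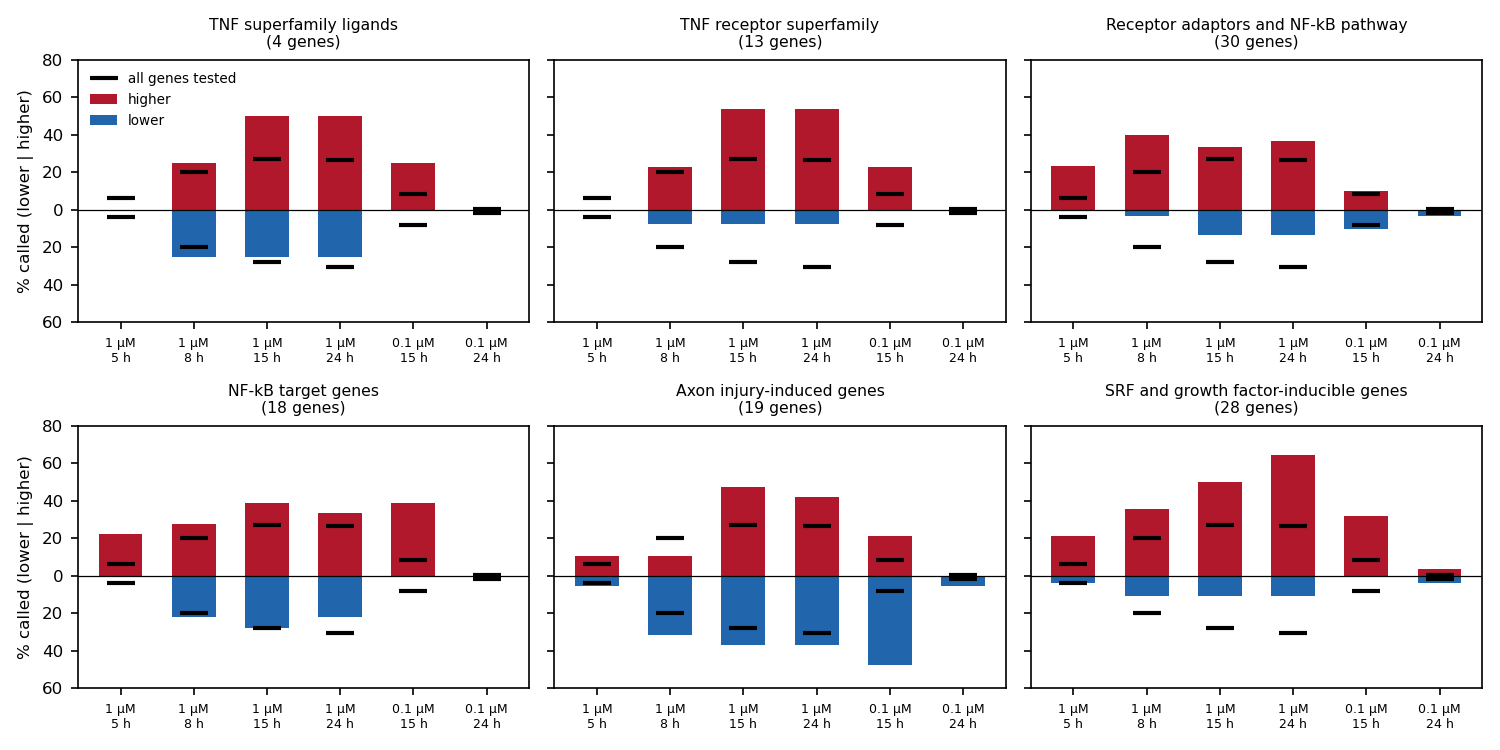
Share of the tested genes of each of 6 lists called higher or lower than untreated in each treated group (%), beside the share of all 10903 genes. Genes chosen by their course are left out. At 24 h of 1 µM 64.3% of the growth factor-inducible genes were higher, against 26.7% of all genes. Among these, Fosl1 and Plaur passed the filter through treated arrays only, and of the other 26 genes 16 were higher.

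Between doses, which uses no untreated array, 41 of the 106 genes were higher and 18 lower at 1 µM than at 0.1 µM at 15 h (26% and 25.4% of all genes, 51.4% in either direction), and 53 were higher and 20 lower at 24 h (26.7% and 27% of all genes, 53.7% in either direction). Map3k14 differed by 2.03 ± 0.18 at 15 h and 1.49 ± 0.18 at 24 h (SE, limma adjusted p = 7.97e-09 and 5.36e-07). Tnfrsf1a differed by 0.03 ± 0.15 at 15 h and 1.23 ± 0.15 at 24 h (SE, limma adjusted p = 0.893 and 4.44e-07). Fas differed by 0.27 ± 0.15 at 15 h and 1.31 ± 0.15 at 24 h (SE, limma adjusted p = 0.146 and 1.84e-07). Tnfrsf12a, at 4.19, had a large difference between doses at 15 h, where Tnfrsf1a and Fas were not called. Of the 13 other receptors tested, 4 were higher and 1 lower at 1 µM at that time, against 26% and 25.4% of all genes.

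The genes with the closest course were sought over the 7 group means, among 3082 genes whose means spanned at least 1 log2 unit. A similar shape was common: 231 of these genes had a Pearson correlation with Tnfrsf12a above 0.95, and 316 had one below -0.95. All genes share the same 24 arrays behind these 7 means. The 12 highest were Nup93 (r = 0.998), Lrrc59 (0.996), Rab21 (0.995), Gadd45a (0.994), Ccdc86 (0.992), Susd6 (0.992), Mbnl2 (0.991), Hmox1 (0.991), Ccdc59 (0.991), Pvr (0.991), Mdm2 (0.990) and Cldn12 (0.990). The next gene, Creb3, had an r that equals that of Cldn12 to 3 decimals. Without any single array, 8 to 11 of the 12 stayed among the closest 12, and the lowest r was 0.982, for Ccdc59.

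These genes share a shape more than a size. Their changes at 24 h of 1 µM ran from 0.93 for Rab21, a small GTPase of endosomes, to 3.47 for Hmox1, or 0.162 to 0.606 of that of Tnfrsf12a. Nup93, a structural subunit of the nuclear pore, had log2 values of 9.48, 9.63 and 9.71 at 5 h, 9.94 to 10.09 at 8 h, 10.45, 10.72 and 10.74 at 15 h and 10.78, 10.85 and 10.75 at 24 h of 1 µM, 9.39 to 9.50 and 8.64 to 9.11 at 15 and 24 h of 0.1 µM, and 8.89 to 9.39 in untreated cultures. Its means climbed at each time of 1 µM, as those of Tnfrsf12a did. Gadd45a, a p53- and stress-inducible growth arrest gene, changed by 0.81, 1.75, 3.39 and 3.26 at 5, 8, 15 and 24 h of 1 µM and by 0.29 and -0.35 at 15 and 24 h of 0.1 µM. Mdm2, the ubiquitin ligase of p53, changed by 0.49, 1.07, 2.22 and 2.40 at 1 µM and by 0.00 and -0.24 at 0.1 µM.

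Hmox1, the haem oxygenase induced by oxidative stress, was in both sets. Its log2 values were 10.02, 9.91 and 9.48 at 5 h, 10.79, 11.13 and 10.99 at 8 h, 12.19, 12.15 and 12.66 at 15 h and 12.17, 12.17 and 12.29 at 24 h of 1 µM, 9.20 to 9.50 and 8.09 to 8.48 at 15 and 24 h of 0.1 µM, and 8.05 to 9.20 in untreated cultures. Its mean was lower at 24 h than at 15 h of 1 µM, where that of Tnfrsf12a was higher. Probes of 1 gene did not always agree: a second probe of Ccdc59 changed by -0.22 at 24 h of 1 µM, against 1.25 for the probe used, while other probes of Lrrc59, a protein of the endoplasmic reticulum, changed by 0.99 and 1.13, against 1.16. Pvr, an adhesion receptor related to the nectins, was detected on all arrays at 8, 15 and 24 h of 1 µM and on 1 untreated array.

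By size, the genes with the smallest root mean square difference from the 6 changes of Tnfrsf12a were Gdf15 (0.57 log2 units), Atf3 (0.81), Trib3 (0.94), Nupr1 (1.09), Hspb1 (1.11) and Hmox1 (1.23), and the next, Ier3, had 1.31. Gdf15, a secreted stress cytokine, had log2 values of 5.79, 5.92 and 5.84 at 5 h, 7.95, 7.86 and 7.77 at 8 h, 9.65, 9.71 and 9.69 at 15 h and 9.76, 9.98 and 9.89 at 24 h of 1 µM. It was detected on no array at 0.1 µM and on no untreated array. Its difference of 0.57 and its place in the order therefore rest on levels below detection and are not exact. Tnfrsf12a, by contrast, was detected in every group.

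Atf3, Trib3 and Nupr1 are known targets of the stress factor ATF4: a transcription factor, a pseudokinase and a small chromatin protein. Atf3 changed by 1.93, 3.63, 4.60 and 4.44 at 5, 8, 15 and 24 h of 1 µM. It was detected on no array at 0.1 µM and on 1 of 6 untreated arrays, so no change at 0.1 µM is given and those at 1 µM rest on untreated levels near background. On the probe used, Trib3 was ahead of Tnfrsf12a at 5 h of 1 µM (2.42 against 1.65). That probe was behind Tnfrsf12a at 24 h (4.40 against 5.72). The other probes of Trib3 were behind Tnfrsf12a at both times and changed by 2.99 and 4.04 at 24 h. Hspb1, a small heat shock protein that also rises in injured neurons, was behind at 5 h (0.45 against 1.65) and ahead at 24 h (7.36 against 5.72). It was detected on 3 of 6 untreated arrays, so its changes rest on untreated levels near background. Hspb1 at 15 h of 0.1 µM had values of 5.86, 5.76 and 6.82, against 4.99 to 5.22 in untreated cultures. Its change there of 1.04 was near the 1.08 of Tnfrsf12a. Trib3, detected on all 3 arrays there and on 5 of 6 untreated arrays, changed by 0.04.

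**Figure D4:**
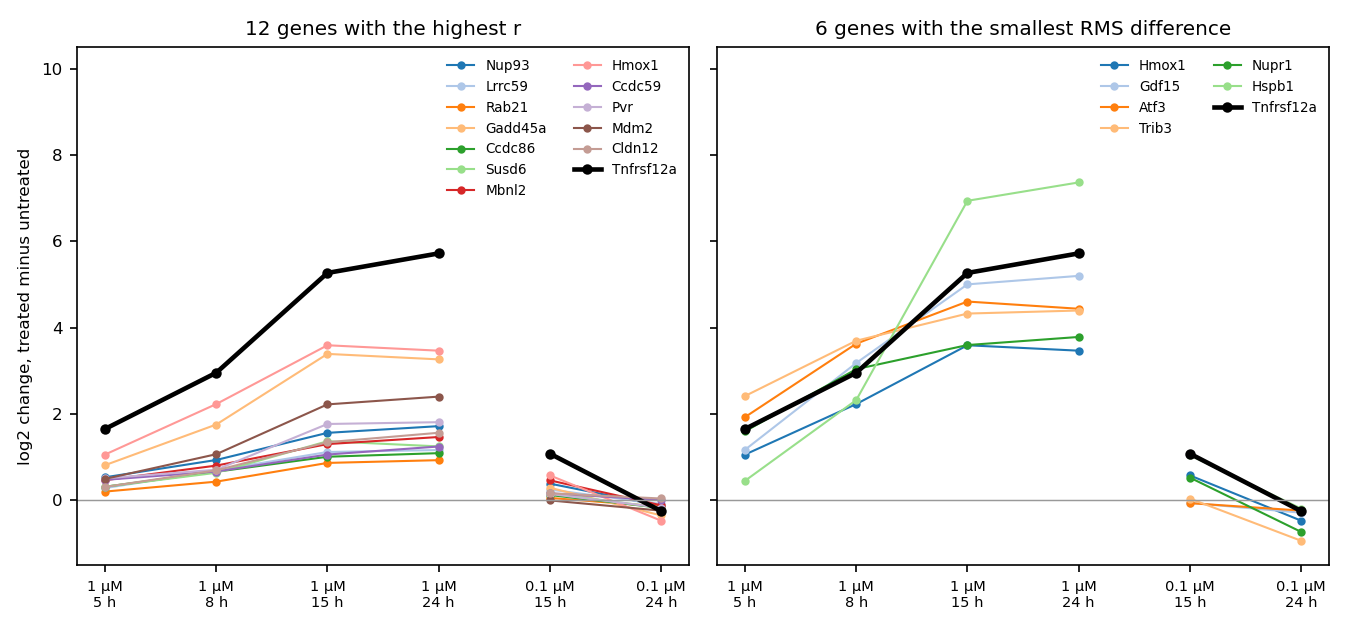
Log2 change from untreated in the 6 treated groups for the 12 genes with the highest correlation with Tnfrsf12a over 7 group means (left) and the 6 genes with the smallest root mean square difference from it (right), with Tnfrsf12a in black. On the left the genes end between 0.93 and 3.47 at 24 h of 1 µM, and on the right Hspb1 ends at 7.36, above the 5.72 of Tnfrsf12a.

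Markers of the cell types that such cultures can hold moved with the same groups, and their part in the level of Tnfrsf12a was not tested. Summed levels are on the linear normalized scale. The counts below stand beside 26.7% of all genes higher and 30.6% lower at 24 h of 1 µM, and 8.53% higher and 8.01% lower at 15 h of 0.1 µM. Of 14 neuronal markers 12 were tested, with a sum of 16269 to 17877 at 24 h of 1 µM and 24647 to 27717 at 15 h of 0.1 µM, against 25967 to 32762 in untreated cultures. Of these, 7 fell at 24 h of 1 µM, among them Stmn2 (-1.14) and Syt1 (-1.12), and Map2 and Nefm rose. All tested neuronal markers but Snap25 were detected on every array, Nefl was detected on none and Rbfox3 has no probe. Of 9 astrocyte markers 7 were tested, with a sum of 10156 to 10941 at 24 h of 1 µM and 16747 to 18546 at 15 h of 0.1 µM, against 12253 to 18431 in untreated cultures. Of these, 6 fell at 24 h of 1 µM, with Aqp4 at -3.59 and Gfap at -1.60, and Gja1 rose. At 15 h of 0.1 µM 4 rose, with Gfap at 1.57, and Slc1a2 and S100b were detected on no array. All 8 oligodendrocyte lineage markers were tested, with a sum of 4680 to 5136 at 24 h of 1 µM and 12255 to 12682 at 15 h of 0.1 µM, against 11394 to 13989 in untreated cultures, and at 24 h of 1 µM 6 fell, with Sox10 at -3.93 and Pdgfra at -3.59.

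Of 11 microglial markers 6 were tested, with a sum of 531 to 647 at 24 h of 1 µM and 263 to 316 at 15 h of 0.1 µM, against 226 to 320 in untreated cultures. After 24 h of 1 µM Cd68 (2.85) and Cx3cr1 (1.95) rose and the other 4 fell. Cx3cr1 was detected on only 9 arrays of the series, so its size may rest on levels near background. Csf1r, Itgam, P2ry12 and Fcer1g were detected on no array. Of 9 fibroblast and meningeal markers 5 were tested, with a sum of 499 to 542 at 24 h of 1 µM and 342 to 375 at 15 h of 0.1 µM, against 373 to 901 in untreated cultures. After 24 h of 1 µM Fn1 rose (2.24) and Dcn fell (-1.07). Pdgfrb and Fbln1 also fell, but no array at that time detected them, so no size is given. Col1a2, Col3a1 and Lum were detected on no array. Of 8 endothelial markers 2 were tested, with a sum of 97.3 to 107 at 24 h of 1 µM and 52.9 to 65.5 at 15 h of 0.1 µM, against 58.2 to 78.6 in untreated cultures. Esam rose at 24 h of 1 µM (1.02). Cldn5 was detected on no array at that time and was not called, and Cdh5 and Kdr were detected on no array.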

How the data were processed

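Deposited tables for 24 Illumina MouseRef-8 arrays were used, 1 array per sample, grouped by the labels' dose and time. Per the file headers, the signal table holds the mean bead intensity of each probe as deposited from BeadStudio 3.2.6, with bead SD and bead number, and a detection score given as a fraction. The authors' deposited normalized table holds ratios, which recomputation from the signals gave as the signal over the array median, divided by the untreated mean; it served as an alternative. Intensities of the deposited non-normalized table were background-corrected (nec), quantile-normalized between arrays and set on the log2 scale with an offset of 16 (limma 3.58.1, R 4.3.3; tables and plots with Python 3.11.15, pandas 2.3.3, numpy 2.4.6 and matplotlib 3.10.9). Of 24691 probes listed, 24613 had values and 20514 were named through RefSeq accessions, which changed 7147 symbols; 13523 with a detection p of at most 0.01 on at least 3 arrays were kept, giving 10903 genes, of which 2088 had several kept probes. All 7 groups entered 1 fit with 17 residual degrees of freedom and no covariate, with moderated tests and Benjamini-Hochberg adjustment. On simulated data for 24 h of 1 µM against untreated, with 10903 genes, 58.2%, 94.0% and 100% of genes changed 1.5-fold, 2-fold and 4-fold were recovered, with 11 false calls.

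The named genes are Tnfrsf12a, Tnfsf12, family members called against untreated, up to 5 of the largest called changes at 24 h of 1 µM per other list, and the closest-course genes. Members and lists were chosen with earlier results of these data known. In the treated groups, scanner columns labelled 3, 1 and 2 hold the values of replicates 1, 2 and 3 (99.92% of 14487 genes equal within 1e-06), so slides follow the matching columns. Same-numbered arrays share a slide: deviations of 45 such pairs correlated by -0.06 to 0.44 (median 0.31), against a median of -0.09 for other pairs. Alternatives were other background corrections, normalizations, filters, weights and fits, the slide as a block and each array left out.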

Additional observations from a re-analysis of the deposited data

Results flagged for a closer look

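A single array stood apart among the 6 untreated arrays for 2 of 47 named genes, by the gap between the lowest array and its neighbour as a share of the group's range (critical value 0.625). These were Fasl in untreated replicate 2, with a log2 value of 4.27 (share 0.674), and Traf3 in untreated replicate 6, with 8.50 (share 0.785). Chance alone marks about 1 in 20 groups. Fasl was below the detection threshold on every untreated array.

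The difference between 1 µM and 0.1 µM changed with time for 14 of 29 named genes checked, by the interaction term in limma with Benjamini-Hochberg adjustment over all 10903 genes. Of all genes, 16.7% changed in this way. The named genes were chosen for calls in groups that enter the same term. Their share is thus raised by the choice, and the count is no result about them. The values are the difference between doses at 24 h minus that at 15 h in log2 units, with the adjusted p in brackets. Among ligands and receptors they were -0.89 for Fasl (0.00131), 1.20 for Tnfrsf1a (5.61e-04), 1.04 for Fas (0.00180) and 1.28 for Tnfrsf22 (0.0272). Fasl was detected on no array at 0.1 µM, nor was Gadd45b, so their values are not exact differences. Nor are those of Plaur and Icam1, which were detected on no array at 24 h of 0.1 µM. Among NF-kB subunits and targets they were 0.52 for Nfkb1 (0.0475), 1.63 for Ier3 (2.11e-05), 1.65 for Csf1 (9.05e-04), 0.66 for Gadd45b (0.0327) and 0.75 for Icam1 (0.0460). Among genes of injured axons and growth factor-inducible genes they were 2.38 for Tubb6 (1.08e-04), 2.26 for Ccn2 (8.56e-06), 0.68 for Plaur (0.00990), 0.94 for Hbegf (0.00576) and 2.06 for Lgals3 (1.16e-05). Tnfrsf12a and the genes chosen by their course were not tested.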

How the results depend on the processing

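No result reversed under any alternative. The difference of Tnfrsf12a from untreated at 8, 15 and 24 h of 1 µM was 2.65, 4.92 and 5.37 log2 units with no background correction and 2.63, 4.90 and 5.35 with an offset of 50. In the authors' deposited table it was 1.37 at 5 h, 4.86 at 15 h and 5.16 at 24 h of 1 µM. Without single arrays it was 1.55 to 1.75, 2.85 to 3.05, 5.16 to 5.37 and 5.61 to 5.82 at 5, 8, 15 and 24 h of 1 µM and 0.96 to 1.20 and -0.37 to -0.10 at 15 and 24 h of 0.1 µM. Counts of listed genes called are given here for all 109, with Atf3, Gadd45a and Hspb1, chosen by their course, included. At 5 h of 1 µM the number called was 7 when only the groups compared were fitted. It was 35 with array weights and 32 without the untreated arrays of slide 3. At 15 h of 0.1 µM it was 19 when only the groups compared were fitted. At 24 h of 0.1 µM it was 23 with each array centred on its median, 2 with cyclic loess, 19 in the authors' table, 0 when only the groups compared were fitted and 2 without the untreated arrays of slide 3. With the slide as a block it was 10, or 8 with the slide the labels give; the block from the matching scanner columns changed no named call. Without single arrays the counts were 11 to 25, 41 to 52, 65 to 71 and 72 to 77 at 5, 8, 15 and 24 h of 1 µM, 28 to 41 and 0 to 13 at 15 and 24 h of 0.1 µM, and 55 to 63 and 70 to 77 between doses at 15 and 24 h. With centring on the median, the median change of all genes was -0.15 at 24 h of 1 µM, against -0.05 in the main processing. At 15 and 24 h of 0.1 µM it was -0.14 and -0.20, against -0.03 at both times. In the authors' table it was -0.13 at 24 h of 0.1 µM. Tnfrsf19 lost its call at 24 h of 1 µM under that centring and in the authors' table. Of the 12 genes with the closest course, 4 remained with median centring, 4 by Pearson and 1 by Spearman correlation over 24 arrays, 2 by root mean square difference, and 8 to 11 without single arrays. Of 133 calls of named genes, 115 held under every alternative. The slide from the labels and the set without slide 3 were chosen after seeing the data, and the cause of these changes was not tested. A probe near background, such as that of Tnfsf12, gives no level, and 3 arrays a group limit the precision.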
